A study of Mus musculus with 12 samples.

Results

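The 33 genes described here encode subunits of the receptors for glutamate and γ-aminobutyric acid (GABA). They were chosen by gene symbol from a fixed list and make up 33 of the 55536 genes in the deposited tables. They comprised 4 AMPA, 5 kainate, 7 NMDA, 7 metabotropic glutamate, 8 GABA-A and 2 GABA-B receptor genes, so class sums below cover these listed genes and not every subunit of a class. Their RNA was measured in 12 bulk RNA-seq libraries of mouse oligodendrocyte precursor cells (OPCs), the proliferating glial cells that give rise to myelinating oligodendrocytes. The cells came from the pooled brains of P4-P6 pups and were labelled as Sox10GFP+ OPCs. The line carries a Sox10-driven Cre with an EGFP reporter, so the fluorescence marks cells of the Sox10 lineage and not OPCs alone. The protocol names either sorting for this fluorescence or magnetic selection for CD140a, and does not say which library had which. The samples also carry the tag EAE for the mouse model, whereas the protocol describes cultured cells of unmanipulated pups. All cells were grown in proliferation medium with PDGFaa and bFGF. There were 4 groups of 3 libraries, with the replicates from different litters. Ctr cells received neither agent. EZH2i cells received the EZH2 inhibitor EPZ011989 at 1.5 µM for 4 days. IFN-γ cells received interferon-γ at 100 ng/ml for 6 h. IFN-γ + EZH2i cells received the inhibitor for 4 days and then both agents for 6 h.

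Glutamate acts on OPCs through ionotropic receptors, which are tetrameric cation channels, and through metabotropic receptors, which couple to G proteins. AMPA and kainate receptors carry the fast current, and NMDA receptors pass calcium when glutamate and a co-agonist bind during depolarization. GABA opens the chloride-permeable pentamer of the GABA-A receptor and signals through the G-protein-coupled GABA-B heterodimer. OPCs are known to receive synapses from neurons and to express several of these receptors. EZH2 is the methyltransferase of Polycomb repressive complex 2, which places a repressive methyl mark on histone H3, and IFN-γ is a T cell and natural killer cell cytokine that signals through JAK kinases.

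Library depth ranged from 17403896 to 66546017 estimated reads with a median of 33625880. The OPC markers Pdgfra, Cspg4, Sox10, Olig1, Olig2, Ptprz1, Gpr17 and Lhfpl3 summed to 8563-8724 CPM (counts relative to library size, here scaled by the trimmed mean of M-values, TMM) in Ctr, to 7192-7682 in EZH2i, to 5639-7622 in IFN-γ and to 4745-5695 in IFN-γ + EZH2i. Of these 8, Pdgfra and Cspg4 fell with IFN-γ (adjusted p = 0.014 and 0.0025), and so with IFN-γ in EZH2i-treated cells, where Gpr17 fell as well. The 8 neuron markers summed to 117-257 CPM in Ctr, 202-319 in EZH2i, 169-416 in IFN-γ and 265-447 in IFN-γ + EZH2i, most of it from Nefl, Nefm and Elavl4. Stmn2 and Syt1 of that list rose with IFN-γ by 2.85 and 2.03 on the log2 scale, where Stmn2 had a mean of 0.855 CPM. Stmn2 was the only marker of the 9 lists called with the inhibitor, within IFN-γ. The vesicular glutamate transporter Slc17a6, 1 of the 2 excitatory neuron markers, had 0 counts in every Ctr library. The 2 excitatory markers summed to at most 0.142 CPM in Ctr and to at most 0.940 CPM in any library. The 3 inhibitory neuron markers summed to 2.21-9.58 CPM, the 6 astrocyte markers to 413-1442, the 6 mature oligodendrocyte markers to 91.9-234, the 6 microglia markers to 6.63-11.0 (with Aif1 at no more than 2 counts in any library), the 4 endothelial markers to 8.26-35.4 (mostly Flt1) and the 6 mural or fibroblast-like markers to 1.10-4.21. Of these other lists, the astrocyte marker Fgfr3 fell and the fibroblast marker Lum rose with IFN-γ, with and without the inhibitor. The astrocyte sum was highest in replicate 3 of every group. The part of these marker shifts in the receptor results was not tested. In bulk RNA, fewer cells of a type and less RNA per cell cannot be told apart.

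In untreated OPCs, the AMPA receptor genes held the highest share of the receptor RNA of any class, and Gria2 stood above all other members. On the per-length scale of summed TPM (transcript abundance corrected for length), the 4 AMPA genes held 50.2% ± 2.45 of the summed level of the 33 genes in Ctr (SD, n = 3), with a range of 47.7%-52.6%. Kainate genes held 14.6% ± 2.04, metabotropic genes 12.8% ± 4.84, GABA-B genes 10.6% ± 1.30, GABA-A genes 6.15% ± 1.34 and NMDA genes 5.70% ± 0.448. The highest Ctr levels were those of Gria2 at 108 ± 27.5 TPM, Grm5 at 37.2 ± 20.1, Gabbr1 at 22.8 ± 4.03, Gria4 at 19.5 ± 6.29 and Gria3 at 16.9 ± 5.57 (SD, n = 3). 8 members reached 10 TPM, 13 lay between 1 and 10, and 12 lay below 1. In the order of mean Ctr levels, the libraries of neighbouring genes overlapped in 30 of 32 steps. The steps without overlap were that between Gria2 and Grm5 and that between Grin2c and Grm2, so most ranks below Gria2 do not differ beyond their spread. Over protein-coding transcripts alone, which held 43.5% of the Gria2 TPM, the AMPA share in Ctr was 40.3% ± 2.28, and Gria2 at 29.1-58.9 TPM overlapped with Grm5 at 9.75-35.0. Grm2 and Grm6 had no more than 4 counts in any library and were the 2 members not tested. The other 31 entered the fit of 18995 genes.

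**Figure D1:**
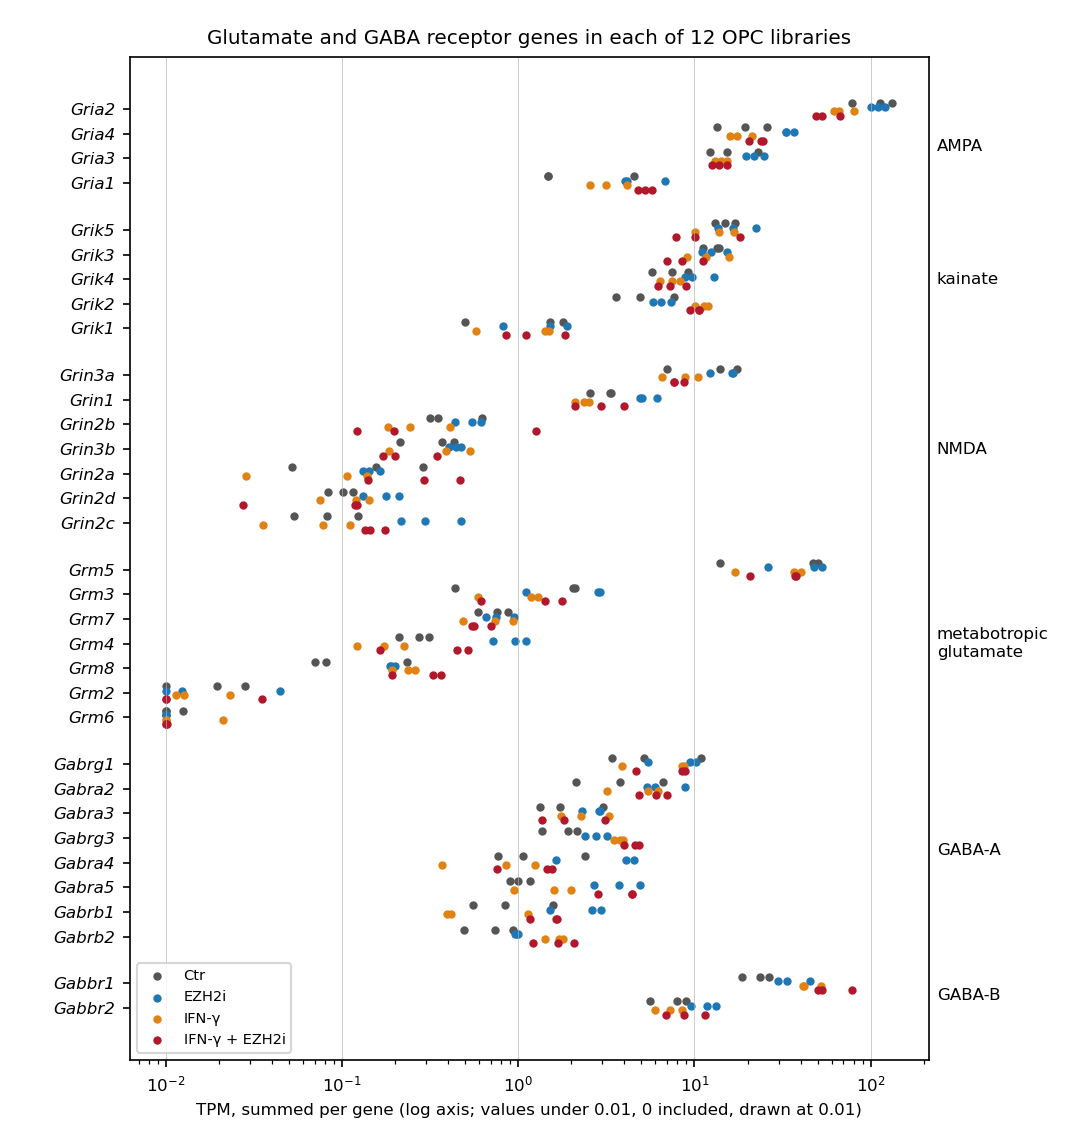
Summed TPM (log axis, with values under 0.01 drawn at 0.01) of the 33 receptor genes in each of the 12 libraries, grouped by receptor class and ordered by level, with 1 point per library coloured by group. Gria2 lies highest among the genes in Ctr (78.5-133 TPM), and Grm2 and Grm6 lie at the bottom.

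The comparison of EZH2i with Ctr asks which receptor genes change when EZH2 is inhibited in resting OPCs. Only Grin2a, an NMDA receptor subunit gene, rose, and no member fell (edgeR's quasi-likelihood F test, p-values adjusted by Benjamini-Hochberg over the 18995 genes, threshold 0.05). Across all genes tested, 0.405% rose and 0% fell. Without reaching the threshold, 23 of the 31 members had positive and 8 negative values, and their median was 0.37 on the log2 scale against 0.0060 over all genes. The class medians were 0.52 for GABA-A genes, all 8 of them positive, 0.49 for NMDA, 0.40 for GABA-B, 0.39 for metabotropic, 0.30 for AMPA and -0.04 for kainate genes. The libraries of 9 members lay wholly above those of Ctr, and none lay wholly below, where 7.37% and 5.34% of all genes did so. These were Gria4, Grin1, Grin2a, Grin2c, Grm4, Gabra5, Gabrg3, Gabbr1 and Gabbr2. With the replicate number as a block, 10 members were higher and 0 lower, against 3.46% and 0.6% of all genes. Libraries of replicate 2 showed little correlation here (r of 0.0467 for deviations from the group means). Between the same libraries, the summed OPC markers were wholly lower in EZH2i (7192-7682 against 8563-8724 CPM), and the endothelial (19.5-35.4 against 9.20-16.9), mural or fibroblast-like (2.37-3.61 against 1.10-2.14) and excitatory neuron markers (0.273-0.643 against 0-0.142) wholly higher. The 8 neuron markers overlapped (202-319 against 117-257 CPM), as did the other lists, and no marker was called. Their part in these values was not tested.

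In IFN-γ-treated cells, Grin2a was again the only member to rise with the inhibitor, and 9 further members passed once same-numbered libraries were matched. The comparison of IFN-γ + EZH2i with IFN-γ had 1 member higher and 0 lower, with 0.347% of all genes higher and 0.00526% lower. With the replicate number as a block, which pairs the libraries here, 10 members were higher and 0 lower, against 3.11% and 0.827% of all genes. The 10 were Gria1, Gria4, Grin2a, Grm4, Gabra2, Gabra4, Gabra5, Gabrb1, Gabrg3 and Gabbr1, with blocked adjusted p from 0.00056 for Gabra5 to 0.0422 for Gabrb1. Of the 31 members, 25 had positive values and the median was 0.39, against -0.0050 over all genes. The libraries of 8 members (Gria1, Grin2a, Grin2c, Grm4, Grm8, Gabra5, Gabrg3 and Gabbr1) lay wholly above those of IFN-γ and none wholly below, where 6.08% and 4.26% of all genes did so. The summed endothelial (17.1-32.5 against 8.26-16.5 CPM) and excitatory neuron markers (0.323-0.940 against 0.0617-0.240) were wholly higher in these libraries too, and their part was not tested.

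IFN-γ moved a small group of members in opposite directions. Against Ctr, 3 members rose, namely the kainate subunit gene Grik2, the GABA-A subunit gene Gabrg3 and the GABA-B subunit gene Gabbr1, and 2 fell, namely the AMPA subunit gene Gria2 and the NMDA subunit gene Grin3a. Among all genes tested, 6.65% rose and 2.1% fell. The remaining 26 tested members did not pass the test. With the replicate number as a block, 4 members were higher and 10 lower, against 12.4% and 8.8% of all genes. Libraries of replicate 2 showed little correlation here (r of 0.0854 for deviations from the group means). The members' median was -0.21, with 9 positive and 22 negative values, against 0.0010 over all genes. The libraries of 4 members (Grik2, Gabrb2, Gabrg3 and Gabbr1) lay wholly above Ctr and of 6 (Gria2, Gria3, Grin1, Grin3a, Grm4 and Gabbr2) wholly below, where 13.5% and 9.52% of all genes did so. The summed OPC markers fell outside the Ctr range as well (8563-8724 CPM in Ctr, 5639-7622 in IFN-γ, 2 of 8 called lower), and the mural or fibroblast-like markers were wholly higher (2.93-4.21 against 1.10-2.14). Their part in these changes was not tested.

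In EZH2-inhibited cells, IFN-γ raised Grik2, Gabrg3 and Gabbr1 and lowered Grin3a. These were 3 members higher and 1 lower in the comparison of IFN-γ + EZH2i with EZH2i, where 5.9% and 2.17% of all genes were called. Gria2 had a log2 fold change of -0.71 ± 0.21 with an adjusted p of 0.057. With the replicate block, 4 members were higher (Gabrb2 in addition) and 12 lower, against 11% and 8.3% of all genes. The 12 were Gria2, Gria3, Gria4, Grik3, Grin1, Grin2b, Grin2c, Grin3a, Grm3, Grm4, Gabra4 and Gabrb1. The members' median was -0.27, with 11 positive and 20 negative values, against 0.0017 over all genes. The libraries of 3 members (Grik2, Gabrg3 and Gabbr1) lay wholly above EZH2i and of 7 (Gria2, Gria3, Gria4, Grin1, Grin2c, Grin3a and Grin3b) wholly below, where 11.8% and 9.66% of all genes did so. The summed OPC markers were wholly lower here as well (4745-5695 against 7192-7682 CPM), and their part was not tested.

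The 4 comparisons share libraries, since each group enters 2 of them. Whether the change with the inhibitor differed between cells with and without IFN-γ was tested as an interaction. It called 0 members and 0 of all genes, and 0 members and 127 genes had an unadjusted p under 0.05 (edgeR). DESeq2 also called 0 genes. The members' median interaction was 0.013 on the log2 scale.

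**Figure D2:**
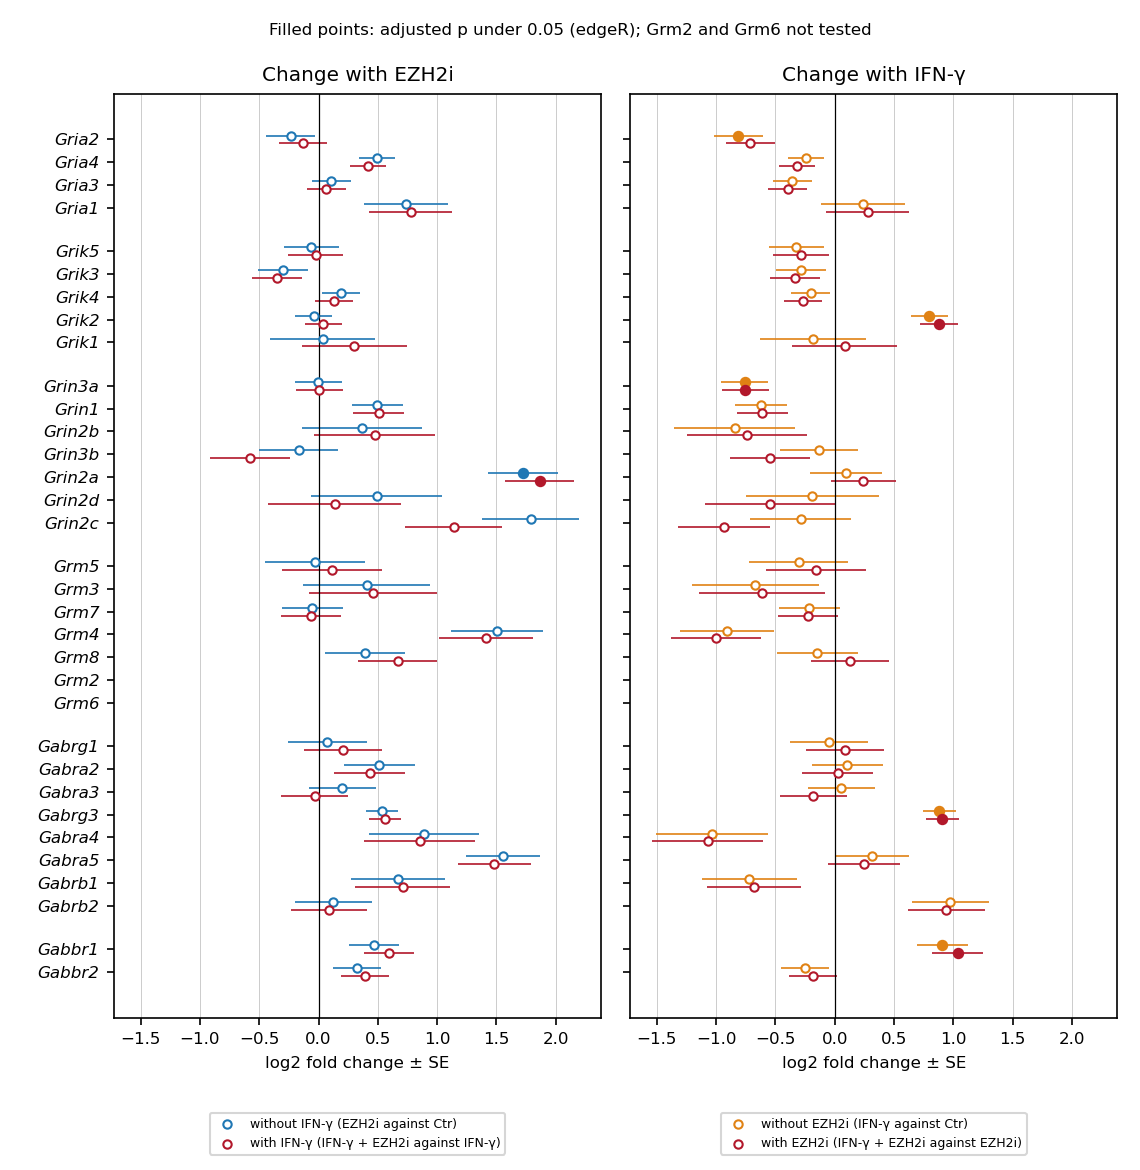
Log2 fold change with its standard error for the 31 tested receptor genes in the 4 comparisons (edgeR, 3 libraries per group), with filled symbols for an adjusted p under 0.05. In the inhibitor comparisons only Grin2a is filled, at 1.72 and 1.87, whereas the IFN-γ comparisons have Grik2, Gabrg3 and Gabbr1 filled on the right and Grin3a on the left, with Gria2 filled on the left in the comparison with Ctr.

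The AMPA receptor genes encode the pore-forming subunits GluA1 to GluA4, and Gria2 encodes the subunit that makes the channel poorly permeable to calcium once its RNA is edited. Each gene carries a pair of alternative exons, flip and flop, of which a transcript includes 1, and the choice changes how the channel desensitizes. The windows below are shown because they hold the codons by which coding transcripts of the 4 genes were assigned to flip or flop. The amounts given for these transcripts are estimates over their whole length. Each is a stretch of 54 bases of that exon, read 5′ to 3′ from the GRCm38 genome, and capitals mark the bases that differ between flip and flop of the same gene (12, 10, 8 and 10 bases in Gria1 to Gria4).
Gria1 flip, chr11:57310630-57310683, plus strand: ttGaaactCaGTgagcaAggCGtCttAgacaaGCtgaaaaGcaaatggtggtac
Gria1 flop, chr11:57309791-57309844, plus strand: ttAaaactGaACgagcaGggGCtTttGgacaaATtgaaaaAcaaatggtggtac
Gria2 flip, chr3:80690443-80690496, minus strand: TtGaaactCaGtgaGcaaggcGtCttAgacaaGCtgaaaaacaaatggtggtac
Gria2 flop, chr3:80691359-80691412, minus strand: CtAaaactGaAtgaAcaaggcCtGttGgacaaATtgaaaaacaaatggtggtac
Gria3 flip, chrX:41669523-41669576, plus strand: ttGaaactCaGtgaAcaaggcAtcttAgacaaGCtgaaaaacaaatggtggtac
Gria3 flop, chrX:41654832-41654885, plus strand: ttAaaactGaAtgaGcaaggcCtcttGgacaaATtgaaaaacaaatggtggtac
Gria4 flip, chr9:4427069-4427122, minus strand: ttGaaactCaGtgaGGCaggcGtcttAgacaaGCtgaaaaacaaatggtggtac
Gria4 flop, chr9:4432812-4432865, minus strand: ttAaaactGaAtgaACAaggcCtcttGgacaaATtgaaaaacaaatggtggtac

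More AMPA receptor RNA was assigned to flip than to flop transcripts in every library, for each of the 4 genes. Flip held 89.1% of the flip and flop TPM of Gria2 over the 12 libraries (range 86.9%-92.8%), 88.1% of that of Gria1 (77.6%-96.9%), 93.8% of that of Gria3 (85.3%-100%) and 87.2% of that of Gria4 (65.0%-98.0%). The compared groups overlapped in these shares, except that Gria2 had 88.4%-91.7% in IFN-γ, just above the 86.9%-88.4% of Ctr. The annotated Gria2 flop transcript is 10371 bases long and its flip transcript 4026, so they differ in their ends too. The Gria3 transcripts also differ in length, at 5192 bases for flip and 3081 and 2667 for flop. On estimated counts, which favour the longer transcript, flip held 71.5%-82.8% of Gria2, which stood at 193, 214 and 251 CPM for flip in Ctr and at 70.2, 85.5 and 88.2 for flop. The other Gria2 transcripts, not annotated as coding, were not searched for these exons and took 246-308 CPM in Ctr.

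Gria2 (ENSMUSG00000033981, chr3:80681450-80802835, minus strand) had the highest mean TPM of the members in Ctr, EZH2i and IFN-γ. In IFN-γ + EZH2i its 56.2 ± 9.29 TPM overlapped with the 60.3 ± 15.6 of Gabbr1. Its Ctr libraries had 508, 572 and 648 CPM (replicates 1, 2 and 3, in this order throughout). The EZH2i libraries had 463, 441 and 565 CPM, the IFN-γ libraries 303, 269 and 409, and the IFN-γ + EZH2i libraries 247, 257 and 392. All 6 libraries with IFN-γ lay below all 6 without it. Gria2 fell 1.76-fold with IFN-γ in cells without the inhibitor (log2 fold change -0.82 ± 0.21, SE, adjusted p = 0.029). This call was lost without IFN-γ replicate 1 or 2 or without Ctr replicate 2 or 3 (adjusted p from 0.0816 to 0.133). In EZH2-inhibited cells the value of -0.71 passed the threshold with the replicate block (adjusted p = 0.00017), without IFN-γ replicate 3 (0.0401) and without IFN-γ + EZH2i replicate 3 (0.0129). It also passed with DESeq2 (0.0170), and in edgeR with no filter on low counts (0.0492), length-scaled TPM (0.0447) or protein-coding transcripts only (0.0358). The other 15 of 22 alternatives did not call it. Split by exon, Gria2 flip transcripts fell with IFN-γ in both settings (log2 fold change -0.69 and -0.70, adjusted p = 0.024 and 0.022), and flop transcripts had -0.95 (adjusted p = 0.045) against Ctr and -0.57 (adjusted p = 0.29) against EZH2i. Whether the exons differed in their change was not tested. This split was chosen after values had been seen.

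Gria4 encodes the subunit GluA4, and its libraries stood at 114, 129 and 143 CPM in Ctr, at 186, 170 and 186 in EZH2i, at 102, 92.7 and 131 in IFN-γ and at 126, 140 and 169 in IFN-γ + EZH2i. The EZH2i libraries were the highest and did not overlap with Ctr, yet the log2 fold change of 0.49 ± 0.15 did not pass the test (adjusted p = 0.32). With the block, Gria4 rose with the inhibitor within IFN-γ (blocked log2 fold change 0.42, adjusted p = 0.032, without the block 0.56) and fell with IFN-γ in EZH2-inhibited cells (-0.33, adjusted p = 0.031, without it 0.32). Gria3 had group means of 112 CPM in Ctr, 121 in EZH2i, 87.7 in IFN-γ and 91.8 in IFN-γ + EZH2i, and its IFN-γ libraries lay below their baselines in both IFN-γ comparisons (log2 fold change -0.36 and -0.40, adjusted p = 0.27 and 0.22, the latter 0.0078 with the block). Gria1 had the lowest TPM of the class in Ctr, with CPM group means of 19.1, 32.1, 22.7 and 39.0 in the same order of groups. Its IFN-γ + EZH2i libraries lay above those of IFN-γ (log2 fold change 0.78 ± 0.35, adjusted p = 0.77, with the block 0.013).

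The share of Gria2 in the AMPA class was lower in each treated group than in Ctr. Gria2 held 71.3%-75.7% of the summed TPM of the 4 genes in Ctr, 63.1%-65.1% in EZH2i, 65.3%-66.5% in IFN-γ and 54.4%-60.6% in IFN-γ + EZH2i. No treated group overlapped with Ctr, and the doubly treated libraries lay below all others. Counting coding transcripts alone, the shares were 54.2%-57.9%, 44.6%-48.5%, 45.7%-50.3% and 36.5%-42.5%. With 3 libraries per group an exact permutation test cannot go below p = 0.1, so these shares are given as a description. As a class, the AMPA genes summed to 147 TPM in Ctr (106-187) and 98.2 in IFN-γ + EZH2i (90.5-110), with overlap. In CPM, which compares libraries, they summed to 742-951 in Ctr and 508-704 in IFN-γ + EZH2i. In the doubly treated cells they held 34.8% of the summed TPM of the 33 genes.

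**Figure D3:**
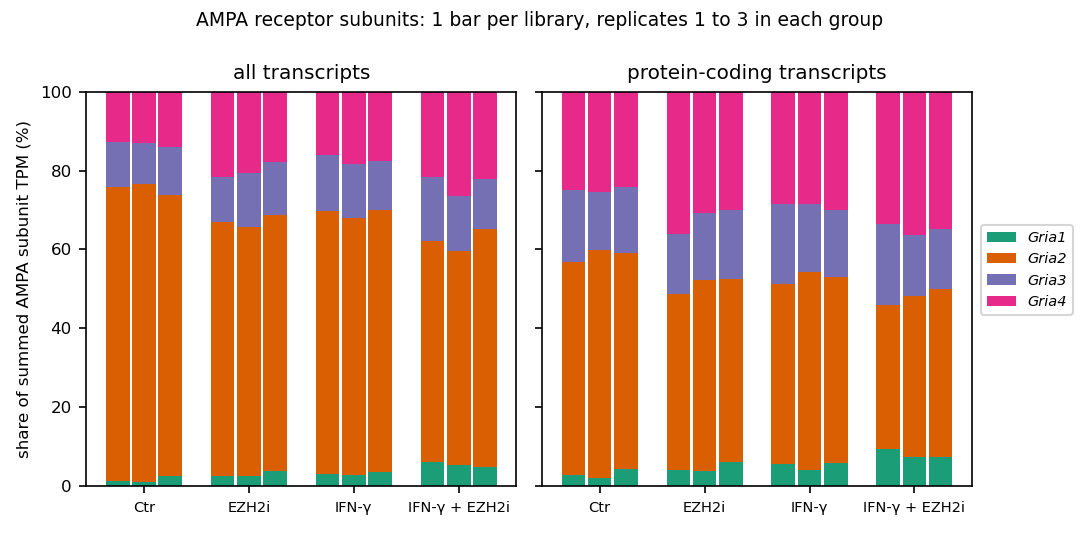
Share in percent of the summed TPM of the 4 AMPA receptor genes held by each gene, in every library of the 4 groups. The Gria2 share is highest in Ctr (71.3%-75.7%) and lowest in IFN-γ + EZH2i (54.4%-60.6%).

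Among the kainate receptor genes, only Grik2 passed the test without the block. Grik2 (ENSMUSG00000056073, chr10:49094833-49788766, minus strand) encodes the pore-forming subunit GluK2. It had 21.9, 22.2 and 28.2 CPM in Ctr, 21.7, 21.9 and 26.9 in EZH2i, 43.2, 35.7 and 47.1 in IFN-γ, and 40.9, 39.7 and 48.9 in IFN-γ + EZH2i. The 6 libraries with IFN-γ all lay above the 6 without it, and within each set the libraries with and without the inhibitor overlapped. Grik2 rose 1.74-fold with IFN-γ in cells without the inhibitor (log2 fold change 0.80 ± 0.16, adjusted p = 0.0067) and 1.84-fold in EZH2-inhibited cells (0.88 ± 0.16, adjusted p = 0.0034). Both calls were kept without each of the 12 libraries in turn. With the inhibitor, its log2 fold change was -0.04 ± 0.16 against Ctr and 0.04 ± 0.16 within IFN-γ.

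Without the block, the other kainate genes did not pass the test in any comparison. With it, 1 kainate gene was lower with IFN-γ against Ctr, where 8.8% of all genes were. Grik5, which encodes a high-affinity subunit that needs a partner to form a channel, had 62.9, 57.0 and 55.1 CPM in Ctr, 63.4, 58.9 and 45.8 in EZH2i, 58.5, 44.2 and 37.3 in IFN-γ, and 63.5, 41.6 and 32.9 in IFN-γ + EZH2i. Grik3, which encodes the low-affinity subunit GluK3, had 192, 177 and 150 CPM in Ctr, 164, 133 and 125 in EZH2i, 192, 121 and 112 in IFN-γ, and 136, 101 and 96.9 in IFN-γ + EZH2i. In both genes the groups overlapped, and replicate 1 was the highest library of every group. With the block, Grik3 fell with IFN-γ in EZH2-inhibited cells (blocked log2 fold change -0.35, adjusted p = 0.025, without the block 0.51). Grik4 had group means of 34.6-45.5 CPM and Grik1 of 4.67-5.76 CPM. The log2 fold changes of these 4 genes lay between -0.35 and 0.30 over the 4 comparisons.

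The NMDA receptor genes held the only member called with the inhibitor and 1 of the falls with IFN-γ, at very different levels. Grin3a (ENSMUSG00000039579, chr4:49661611-49845744, minus strand) encodes GluN3A, a glycine-binding subunit that lowers the calcium permeability of NMDA receptors and is known for high levels in the young brain. It held 61.2%-80.6% of the NMDA TPM of a library. Its libraries had 87.3, 127 and 141 CPM in Ctr, 94.2, 127 and 134 in EZH2i, 56.0, 76.4 and 77.3 in IFN-γ, and 63.8, 73.6 and 73.3 in IFN-γ + EZH2i. All 6 libraries with IFN-γ lay below all 6 without it. Grin3a fell 1.69-fold with IFN-γ against Ctr (log2 fold change -0.76 ± 0.20, adjusted p = 0.032) and by 0.75 ± 0.20 on the log2 scale in EZH2-inhibited cells (adjusted p = 0.035). The first call was lost without IFN-γ replicate 1 or 2 or Ctr replicate 2 or 3 (adjusted p from 0.0675 to 0.128), and the second without EZH2i replicate 2 or 3 or any 1 of the IFN-γ + EZH2i libraries (0.0711 to 0.132). With the inhibitor its log2 fold change was -0.00071 ± 0.20 against Ctr.

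Grin2a (ENSMUSG00000059003, chr16:9567898-9995560, minus strand) encodes GluN2A, the glutamate-binding subunit that comes up as neurons mature. Its level was very low, with 20, 9 and 31 counts in Ctr, 58, 68 and 122 in EZH2i, 19, 30 and 29 in IFN-γ, and 57, 86 and 72 in IFN-γ + EZH2i. In CPM these were 0.709, 0.508 and 0.526, then 2.07, 1.86 and 1.85, then 0.637, 0.799 and 0.447, and last 2.44, 2.61 and 1.79. All 6 inhibitor-treated libraries lay above all 6 others, and IFN-γ did not separate them. The log2 fold change with the inhibitor was 1.72 ± 0.30 against Ctr (adjusted p = 0.031) and 1.87 ± 0.29 within IFN-γ (adjusted p = 0.025). The first call was lost without any 1 Ctr or EZH2i library or IFN-γ + EZH2i replicate 2 (adjusted p from 0.0589 to 0.164), and the second without any 1 IFN-γ library, IFN-γ + EZH2i replicate 1 or 2 or EZH2i replicate 2 (0.0513 to 0.13). On gene counts rebuilt from length-scaled TPM the value against Ctr turned to -0.48 (adjusted p = 0.97). There, 2 Ctr libraries owe 0.121 and 0.259 TPM to a noncoding Grin2a transcript of 602 bases with under 3 reads, whereas 77.2% of all Grin2a counts belong to a transcript of 14634 bases.

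Grin1 encodes the obligatory subunit GluN1, and its libraries had 17.5, 18.7 and 14.2 CPM in Ctr, 27.7, 22.1 and 21.2 in EZH2i, 13.0, 9.83 and 9.92 in IFN-γ, and 20.8, 13.7 and 12.1 in IFN-γ + EZH2i. The EZH2i libraries lay above Ctr and the IFN-γ libraries below it, but the log2 fold changes of 0.50 ± 0.21 and -0.62 ± 0.22 did not pass the test (adjusted p = 0.67 and 0.12). The value of -0.61 with IFN-γ in EZH2-inhibited cells passed with the block (adjusted p = 0.0033, without it 0.13). An antisense gene, Grin1os, overlaps 1307 exonic bases and averaged 16.8 counts against 622 for Grin1. Grin2c, a further glutamate-binding subunit gene, had group means of 0.528 CPM in Ctr, 1.77 in EZH2i, 0.412 in IFN-γ and 0.924 in IFN-γ + EZH2i. Its log2 fold change with the inhibitor was 1.79 ± 0.41 (adjusted p = 0.11). Grin2b had group means of 2.47-5.71 CPM and Grin2d of 0.589-0.930 CPM, with overlap in all comparisons. With IFN-γ in EZH2-inhibited cells, Grin2b (-0.74, adjusted p = 0.56) and Grin2c (-0.94, adjusted p = 0.21) passed with the block (0.016 and 0.041). Grin3b had 0.746-1.25 CPM and is uncertain, since 1059 of its exonic bases overlap Tmem259 on the opposite strand, which averaged 4031 counts against 39.8 for Grin3b.

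**Figure D4:**
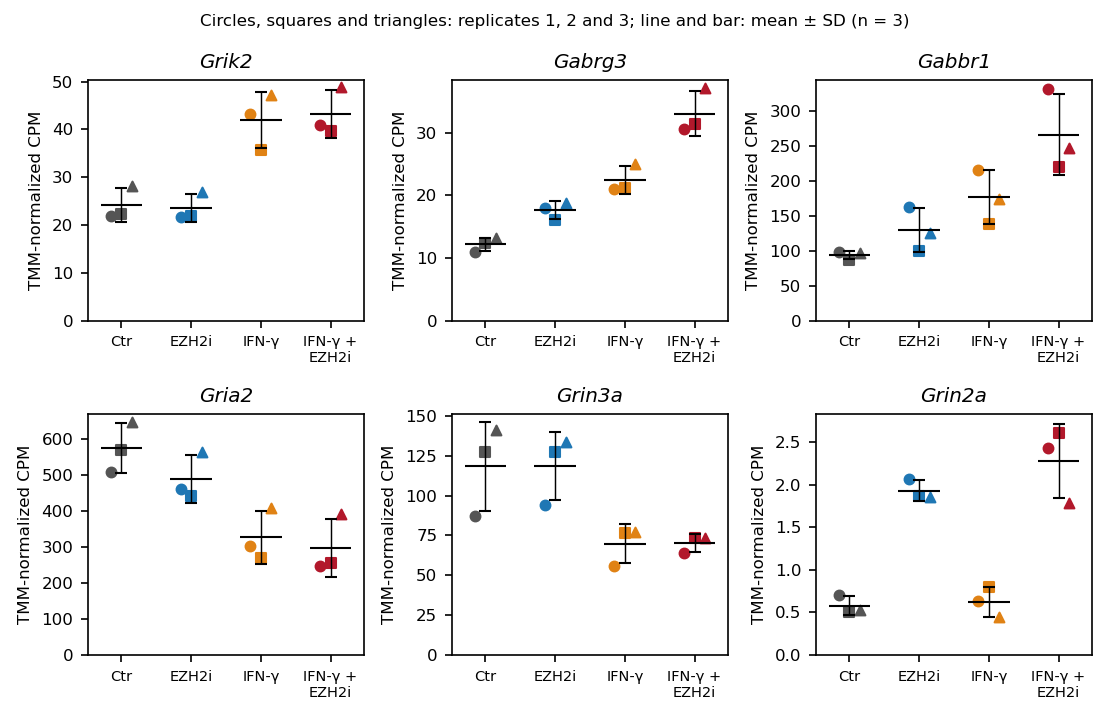
TMM-normalized CPM of the 6 receptor genes called in any comparison, in the 3 libraries of each group, with the mean and SD as line and bar. Grik2, Gria2 and Grin3a separate by IFN-γ, Grin2a separates by the inhibitor at no more than 2.61 CPM, and Gabrg3 and Gabbr1 are highest in IFN-γ + EZH2i.

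Among metabotropic receptor genes, no member passed the test in any comparison without the block, and Grm3 and Grm4 passed with it. Grm5 encodes the Gq-coupled receptor mGlu5 and was the second highest member in Ctr. Its libraries had 119, 282 and 258 CPM in Ctr, 140, 239 and 267 in EZH2i, 96, 181 and 257 in IFN-γ, and 113, 200 and 264 in IFN-γ + EZH2i. Replicate 1 was the lowest library of each group, and that spread was wider than any difference between groups. Grm3, which encodes the Gi-coupled receptor mGlu3, had 2.45, 8.69 and 7.29 CPM in Ctr, 3.86, 9.84 and 10.6 in EZH2i, 2.35, 4.00 and 5.15 in IFN-γ, and 2.44, 5.47 and 7.90 in IFN-γ + EZH2i, with replicate 1 again lowest in each group. With the block, Grm3 fell with IFN-γ in EZH2-inhibited cells (blocked log2 fold change -0.63, adjusted p = 0.029, without the block 0.70). Grm4 had group means of 1.42, 4.05, 0.757 and 2.03 CPM in Ctr, EZH2i, IFN-γ and IFN-γ + EZH2i. Its EZH2i libraries lay above Ctr (log2 fold change 1.51 ± 0.39, adjusted p = 0.17) and its IFN-γ libraries below Ctr (-0.91 ± 0.40, adjusted p = 0.24). With the block, Grm4 rose with the inhibitor within IFN-γ (blocked log2 fold change 1.29, adjusted p = 0.024, without the block 0.27) and fell with IFN-γ in EZH2-inhibited cells (-1.07, adjusted p = 0.011, without it 0.16). Grm8 had 0.472 CPM in IFN-γ and 0.742 in IFN-γ + EZH2i, without overlap (adjusted p = 0.84). Grm7 had group means of 2.67-3.27 CPM, with log2 fold changes between -0.23 and -0.05.

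Of the 8 GABA-A receptor genes, Gabrg3 rose with IFN-γ. None passed the main edgeR test with the inhibitor, though some did with the block, with DESeq2 or without the filter on low counts. Gabrg3 (ENSMUSG00000055026, chr7:56716465-57387188, minus strand) encodes the γ3 subunit. It had 11.0, 12.4 and 13.1 CPM in Ctr, 18.1, 16.1 and 18.8 in EZH2i, 21.0, 21.3 and 25 in IFN-γ, and 30.6, 31.5 and 37.1 in IFN-γ + EZH2i. The 4 groups did not overlap with each other, from Ctr as the lowest through EZH2i and IFN-γ to the doubly treated cells. With IFN-γ, Gabrg3 rose 1.84-fold against Ctr (log2 fold change 0.88 ± 0.14, adjusted p = 0.0012) and 1.88-fold in EZH2-inhibited cells (0.91 ± 0.14, adjusted p = 0.00088), and both calls were kept without each of the 12 libraries in turn. With the inhibitor, the values of 0.54 ± 0.14 against Ctr and 0.56 ± 0.14 within IFN-γ did not pass (adjusted p = 0.17 and 0.16), and the latter passed with the block (adjusted p = 0.0044). The interaction was 0.03 ± 0.19.

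Gabra5, which encodes the α5 subunit of extrasynaptic receptors, came close to the threshold with the inhibitor. Its libraries had 5.0, 2.82 and 2.73 CPM in Ctr, 13.1, 10.4 and 7.56 in EZH2i, 4.72, 5.49 and 2.99 in IFN-γ, and 13.1, 13.9 and 9.86 in IFN-γ + EZH2i. All 6 inhibitor-treated libraries lay above the 6 others. The log2 fold change was 1.55 ± 0.31 against Ctr (adjusted p = 0.065, with the block 0.00051) and 1.48 ± 0.31 within IFN-γ (adjusted p = 0.087, with the block 0.00056). Without the filter on low counts, edgeR called both (adjusted p = 0.0236 and 0.0383). DESeq2 also called both (adjusted p = 0.00040 and 0.00071).

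The most abundant GABA-A genes of the list, Gabrg1 and Gabra2, showed replicate spread more than group differences. Gabrg1 encodes the γ1 subunit and had 23.8, 25.3 and 40.9 CPM in Ctr, 21.2, 35.1 and 38.7 in EZH2i, 19.3, 29.2 and 38.8 in IFN-γ, and 21.8, 35.8 and 43.4 in IFN-γ + EZH2i. Gabra2 encodes the α2 subunit and had 18.8, 22.4 and 34.4 CPM in Ctr, 29.4, 30.8 and 47.8 in EZH2i, 19.9, 25 and 36.6 in IFN-γ, and 28.6, 33.4 and 47.9 in IFN-γ + EZH2i. Replicate 3 was the highest in all groups of both genes, as it was for the summed astrocyte markers (952 CPM in Ctr replicate 3 against 463 and 524 in the others), and the groups overlapped. Whether these move together was not tested. Within each replicate number Gabra2 was higher with the inhibitor (log2 fold change 0.43 within IFN-γ, adjusted p = 0.98, with the block 0.010). Gabrb2, the β2 subunit gene, had means of 3.36 CPM in Ctr and 6.61 in IFN-γ, without overlap (log2 fold change 0.98 ± 0.33, adjusted p = 0.10), and in EZH2-inhibited cells its value of 0.94 passed with the block (adjusted p = 0.00096, without it 0.12). Gabra4, Gabrb1 and Gabra3 overlapped in all comparisons, with group means of 3.36-12.9, 6.11-16.1 and 9.54-11.0 CPM. With the block, Gabra4 (blocked log2 fold change 0.88, adjusted p = 0.011, without the block 0.88) and Gabrb1 (0.77, adjusted p = 0.042, without it 0.89) rose with the inhibitor within IFN-γ. With IFN-γ in EZH2-inhibited cells they fell with the block (-1.10 and -0.69, adjusted p = 0.00028 and 0.019, without it 0.25 and 0.45). Exons of Gabra4 and Gabrb1 share 46 bases on opposite strands. The summed GABA-A share of the 33 genes was 6.15% in Ctr and 10.0% in IFN-γ + EZH2i.

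The GABA-B receptor works as a dimer of the GABA-binding subunit from Gabbr1 and the G-protein-coupling subunit from Gabbr2, and only the first gene changed. Gabbr1 (ENSMUSG00000024462, chr17:37045966-37075067, plus strand) had 98.4, 86.8 and 95.9 CPM in Ctr, 163, 100.0 and 126 in EZH2i, 216, 138 and 174 in IFN-γ, and 331, 220 and 246 in IFN-γ + EZH2i. The doubly treated libraries were above all others, and EZH2i and IFN-γ libraries overlapped with each other but not with Ctr. With IFN-γ, Gabbr1 rose 1.88-fold against Ctr (log2 fold change 0.91 ± 0.21, adjusted p = 0.018) and 2.05-fold in EZH2-inhibited cells (1.04 ± 0.21, adjusted p = 0.0084). The first call was lost without any 1 Ctr library or IFN-γ replicate 1 (adjusted p from 0.0546 to 0.101), and the second was kept without each of the 12 libraries. With the inhibitor the values were 0.47 ± 0.21 against Ctr and 0.59 ± 0.21 within IFN-γ (adjusted p = 0.70 and 0.51, the latter 0.0048 with the block).

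Gabbr2 had 60.6, 63.1 and 61.5 CPM in Ctr, 76.7, 64.2 and 91.4 in EZH2i, 60.2, 39.0 and 56.7 in IFN-γ, and 78.8, 50.4 and 75.6 in IFN-γ + EZH2i. Its EZH2i libraries lay above Ctr and its IFN-γ libraries below, but the values of 0.33 ± 0.20 and -0.25 ± 0.20 did not pass (adjusted p = 0.88 and 0.60). Together, the GABA-B genes held 10.6% of the summed TPM of the 33 genes in Ctr and 24.5% ± 5.45 in IFN-γ + EZH2i.

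Gabbr1 has an upstream start, from which the longer subunit form with sushi domains is made, and a downstream start inside the gene for the shorter form. Transcripts were grouped by start after the gene's values had been seen. In Ctr, the 4 upstream transcripts had 22.4, 20.6 and 21.7 CPM and the 2 downstream transcripts 75.1, 65.3 and 73.5. With IFN-γ alone these became 28.8, 29.6 and 29.3 upstream and 185, 106 and 143 downstream, and in IFN-γ + EZH2i 33.7, 35.5 and 38.5 upstream and 295, 182 and 206 downstream. Both groups of transcripts rose with IFN-γ. The log2 fold changes against Ctr were 0.44 ± 0.11 upstream (adjusted p = 0.027) and 1.02 ± 0.25 downstream (adjusted p = 0.024), and in EZH2-inhibited cells 0.42 ± 0.11 (adjusted p = 0.034) and 1.16 ± 0.25 (adjusted p = 0.011). The difference between the starts was not tested. Of the 8.03 upstream TPM in Ctr, 5.43 belonged to Gabbr1-209, of 1595 bases, and 0.737 to the longest transcript, Gabbr1-201, of 5248 bases. In IFN-γ these 2 had 5.84 and 1.83 TPM. The upstream sum is therefore not a measure of the longer subunit form. A single downstream transcript, Gabbr1-203, took 81.2% of the gene's counts.

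**Figure D5:**
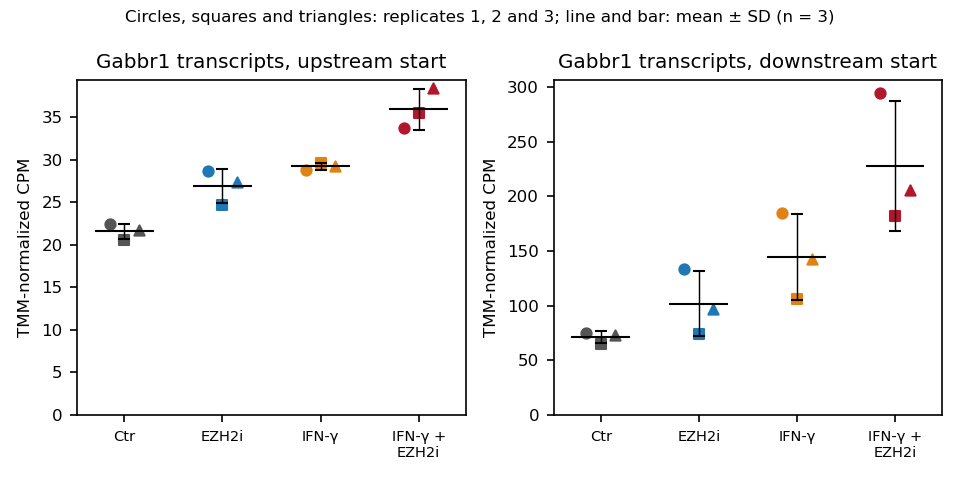
TMM-normalized CPM of Gabbr1 transcripts with the upstream start (left) and the downstream start (right) in the 3 libraries of each group, with mean and SD; the axes of the panels differ. Upstream transcripts lie at 20.6-38.5 CPM and downstream transcripts at 65.3-295 CPM.

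The promoter windows of the 3 genes that rose with IFN-γ in both settings and of Gria2 are shown because they can be read for a sequence that interferon-activated factors are known to bind. Each runs from 250 bases before to 50 bases after the RefSeq start on GRCm38.p6, 5′ to 3′ on the gene's strand, with CG dinucleotides in capitals.
Gabbr1 promoter window, chr17:37045716-37046015, plus strand: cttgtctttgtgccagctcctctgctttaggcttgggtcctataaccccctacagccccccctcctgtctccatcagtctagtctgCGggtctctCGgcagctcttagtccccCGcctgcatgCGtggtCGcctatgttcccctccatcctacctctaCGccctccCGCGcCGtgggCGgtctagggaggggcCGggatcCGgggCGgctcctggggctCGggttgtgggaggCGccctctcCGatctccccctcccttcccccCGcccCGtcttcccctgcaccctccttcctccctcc
Gabrg3 promoter window, chr7:57387166-57387465, minus strand: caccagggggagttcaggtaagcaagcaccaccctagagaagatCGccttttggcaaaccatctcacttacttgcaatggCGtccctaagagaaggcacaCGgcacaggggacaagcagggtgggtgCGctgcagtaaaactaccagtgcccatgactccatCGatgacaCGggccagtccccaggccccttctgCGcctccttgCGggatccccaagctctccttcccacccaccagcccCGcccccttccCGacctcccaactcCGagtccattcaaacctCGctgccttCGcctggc
Grik2 promoter window, chr10:49788705-49789004, minus strand: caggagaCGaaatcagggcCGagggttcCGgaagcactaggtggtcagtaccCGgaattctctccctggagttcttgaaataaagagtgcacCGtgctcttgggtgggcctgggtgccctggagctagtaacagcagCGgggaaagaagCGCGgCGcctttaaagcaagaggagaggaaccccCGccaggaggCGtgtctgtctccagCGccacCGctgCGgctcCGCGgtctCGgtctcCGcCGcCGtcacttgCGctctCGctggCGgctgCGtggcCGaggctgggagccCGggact
Gria2 promoter window, chr3:80802786-80803085, minus strand: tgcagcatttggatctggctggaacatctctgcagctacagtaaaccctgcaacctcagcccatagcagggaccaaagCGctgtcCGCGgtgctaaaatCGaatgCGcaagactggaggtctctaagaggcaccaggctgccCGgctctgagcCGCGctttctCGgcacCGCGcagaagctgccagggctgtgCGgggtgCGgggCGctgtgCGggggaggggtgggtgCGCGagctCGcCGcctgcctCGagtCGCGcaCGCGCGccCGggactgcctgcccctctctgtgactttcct

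The Gabbr1 window lies at the upstream start, whereas Gabbr1-203, the downstream transcript with most of the counts, starts at chr17:37050631, outside it. The windows held 18, 13, 26 and 26 CG dinucleotides, against a median of 7 over the 32851 windows of this length. A window was at hand for 25 of the 33 members (not for Grm4, Grin3a, Grin2a, Grik1, Grin2b, Gria1, Gria3 and Grm5). Their median was 17 CG dinucleotides with a range of 0-50, and 21 of the 25 lay above the overall median. The interferon-stimulated response motif, taken as a pair of GAAA separated by any 2 bases, stood in 3.44% of all windows and in 0 of the 25, both strands searched. None of the 4 windows shown holds it, which says only that these letters are not in these windows.

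Receptors act with auxiliary subunits, scaffolds, transporters and enzymes, and 60 such genes were followed in 8 lists, of which 57 could be tested. With the inhibitor in resting cells, 1 of the 57 rose and 0 fell, where 0.405% and 0% of all genes did. That was Cacng5, an AMPA receptor auxiliary subunit gene of the TARP family (log2 fold change 0.98 ± 0.13, adjusted p = 0.0098). Its libraries had 8.37, 7.4 and 8.30 CPM in Ctr, 16.5, 15.0 and 16.1 in EZH2i, 22.3, 18.9 and 21.1 in IFN-γ, and 25.6, 22.7 and 20.3 in IFN-γ + EZH2i, so all 9 treated libraries lay above Ctr. The inhibitor call was lost without any 1 Ctr library or EZH2i replicate 1 (adjusted p from 0.0541 to 0.0811). Within IFN-γ the inhibitor called none of the 57 (3 higher and 1 lower with the block, against 3.11% and 0.827% of all genes). Of the 57, 9 had an unadjusted p under 0.05 in edgeR, as did 1220 of all 18995 genes. DESeq2 called 1 of them higher, against 0.75% of all genes.

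With IFN-γ against Ctr, 3 of the 57 rose (5.26%) and 5 fell (8.77%), against 6.65% and 2.1% of all genes. Cacng5 rose (log2 fold change 1.37 ± 0.14, adjusted p = 2.7e-05) and so did Slc12a2, the chloride importer NKCC1 that sets the driving force for GABA-A currents (0.43 ± 0.11, adjusted p = 0.030). The named genes that fell were Cacng4, a TARP gene (-0.99 ± 0.27, adjusted p = 0.042), Shisa7 (-1.15 ± 0.30, adjusted p = 0.030), the kainate receptor auxiliary gene Neto1 (-0.87 ± 0.23, adjusted p = 0.038) and the postsynaptic scaffold gene Dlgap3 (-0.98 ± 0.26, adjusted p = 0.036). Apart from Cacng5, which kept its call in all cases, these 5 lost it without Ctr replicate 1, Ctr replicate 2 or IFN-γ replicate 2 (adjusted p from 0.0681 to 0.165), and at least 1 of them without each other library save IFN-γ + EZH2i replicate 1. Cacng4 was the most abundant of them, with 285, 264 and 301 CPM in Ctr and 174, 96.6 and 158 in IFN-γ.

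In EZH2-inhibited cells, IFN-γ raised 4 of the 57 (7.02%) and lowered 2 (3.51%), near the 5.9% and 2.17% of all genes. With the block these were 5 (8.77%) and 12 (21.1%), against 11% and 8.3%. Among those higher were Slc12a2 (log2 fold change 0.48, adjusted p = 0.018), the scaffold gene Dlg1 (0.47, adjusted p = 0.024) and Cacng5 (0.53, adjusted p = 0.027). The 2 that fell were the delta receptor gene Grid1 (-0.53, adjusted p = 0.023) and Cacng4 (-1.0, adjusted p = 0.041). These 5 named genes lost the call without EZH2i replicate 2 (adjusted p from 0.0783 to 0.116), and at least 1 of them without each other library save IFN-γ replicates 1 and 2. The median over the 57 genes was 0.09 with the inhibitor and -0.09 with IFN-γ against Ctr, where it was 0.0060 and 0.0010 over all genes. No gene of the 8 lists was called in the interaction. The smallest unadjusted p among the named genes there was that of Cacng5 (log2 difference -0.84 ± 0.19, unadjusted p = 0.00077, adjusted p = 0.9999).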

How the data were processed

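Total RNA of 12 OPC cultures was sequenced as stranded paired-end libraries. The authors trimmed the reads and quantified transcripts with Salmon 0.8.2, and per the file headers the deposited values are an estimated count, an effective length and a TPM value per transcript and library. Whether Salmon used strand is not given in the sources used here, so overlapping antisense genes are uncertain. The authors' tables of their own DESeq2 comparisons (fold changes and p-values) were not used. The transcript identifiers match the GRCm38 annotation of Ensembl release 96, from which gene names, positions and transcript types were taken. Promoter windows came from RefSeq.

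Counts of a gene's transcripts were added and rounded to whole numbers. All 12 libraries entered 1 edgeR 4.0.16 quasi-likelihood fit (R 4.3.3) with group as the only term, TMM scaling and filterByExpr, which left 18995 genes. p-values were adjusted by Benjamini-Hochberg over these, with a threshold of 0.05. The SE of a log2 fold change is its size over the root of its F statistic. CPM compares libraries, and TPM summed per gene compares genes. The fit was tested on simulated counts. DESeq2 1.42.0 served as an alternative. Deviations of same-numbered libraries from their group means correlated in both comparisons with IFN-γ + EZH2i (r of 0.604, 0.493 and 0.642 against IFN-γ and 0.530, 0.496 and 0.621 against EZH2i), so blocked values are given beside those results where they change the call. They did not in every pair of the comparisons with Ctr. There, blocked results are given as counts of members, and by gene for Gabra5 only. A gene without a blocked value in a comparison with Ctr can still have passed with the block. Members, gene lists and tests were chosen with earlier results of these data known. Values in every library are given for members called in any comparison and for the 2 genes of each class with the highest mean TPM in Ctr, with Gabra5 added after its values were seen. Of the pathway lists, at most the 6 called genes of smallest p per comparison are named, and 1 of these is not reported here. Leaving out each library, other scalings, filters and tools were tried.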

Additional observations from a re-analysis of the deposited data

How the results depend on the processing

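In EZH2i versus Ctr, 1 member was higher. It was 5 with DESeq2, 2 with no filter on low counts, 10 with the replicate block, and 0 with at least 10 counts in every library, with length-scaled TPM or with only the 6 libraries compared. The number for IFN-γ + EZH2i versus IFN-γ was likewise 1, with 3, 2, 10, 0, 0 and 0 under the same alternatives. For IFN-γ versus Ctr, 3 higher members became 0 above an absolute log2 fold change of 1, and 2 lower members became 10 with the replicate block, 1 with length-scaled TPM, 1 with only the 6 libraries and 0 above that fold change. For IFN-γ + EZH2i versus EZH2i, 3 higher became 1 above that fold change, and 1 lower became 2 with DESeq2, 2 with no filter, 2 with protein-coding transcripts only (an alternative chosen after seeing the data), 12 with the replicate block and 0 above that fold change. Over the 31982 genes with a p-value, DESeq2 called 0.894% higher in EZH2i versus Ctr and 0.75% higher in IFN-γ + EZH2i versus IFN-γ. In IFN-γ + EZH2i versus EZH2i it called 2.12% lower. The cause of the differences between alternatives was not tested. Leaving out 1 library at a time gave 0-1 higher members for EZH2i versus Ctr, 0-2 higher for IFN-γ + EZH2i versus IFN-γ, 2-3 higher and 0-3 lower for IFN-γ versus Ctr, and 3-4 higher and 0-2 lower for IFN-γ + EZH2i versus EZH2i. Over all genes, the block raised the calls from 77 to 657 higher (3.46%) in EZH2i versus Ctr and from 1264 to 2360 higher (12.4%) and 399 to 1672 lower (8.8%) in IFN-γ versus Ctr. In these comparisons with Ctr, replicate 2 fell short of the rule used (same-number r of 0.0467 and 0.0854), so the block was not relied on there. Replicates 1 and 3 did correlate by number (r of 0.441 and 0.495 for EZH2i, 0.490 and 0.544 for IFN-γ). Every library correlated best with its own number. Grin2a in EZH2i versus Ctr reversed to -0.48 with length-scaled TPM. Grin2a lost its calls with only the 6 libraries compared (adjusted p = 0.0944 and 0.214, edgeR), and Grin3a lost that of IFN-γ versus Ctr there (0.0729) and both with length-scaled TPM (0.0546 and 0.064). The interaction called 0 members in all alternatives run, and it has no fit on 6 libraries. Depth limits Grm2 and Grm6, at no more than 4 counts, and Grin2a, with 9 counts in its lowest library.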
